A study of Rattus norvegicus with 4 samples.

Results

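Amino acid, glucose and monocarboxylate transporters were examined in NR8383 cells exposed to carbon black. They comprise the genes of the solute carrier families Slc1, Slc2, Slc3, Slc5, Slc6, Slc7, Slc16, Slc36, Slc38 and Slc43 that carry a named probe on the array. The rule read gene symbols only and used no measured value. It took 93 of the 16581 named genes, after leaving out Slc2a1, Slc7a2 and Slc7a11. The rule also leaves out Slc7a1, which has no named probe on the array. One of the 93, Slc7a6os, matches by its letters but is named for lying on the opposite strand of Slc7a6 and is not a transporter, which leaves 92 transporter genes.

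NR8383 is a macrophage line established from rat lung lavage. One group was measured, labelled ALI_CB, of cells incubated for 4 h with Printex90, a commercial carbon black powder, at 0.9 cm2/cm2, the surface dose given in the labels. The labels do not spell out ALI, an abbreviation often used for exposure at the air-liquid interface. The cells had been passaged 20 times and seeded in flasks for 48 h, in a medium with 15% fetal bovine serum and 2 mM L-glutamine. The series design counts 4 biological replicates per condition, and each of the 4 arrays holds total RNA of 1 replicate. Unexposed control cells are part of that design and were not analysed here. The values therefore describe exposed cells alone, with no test between groups. A line is a single source of cells, so the replicates are separate incubations and not separate animals.

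Solute carriers of these families move nutrients across the plasma membrane and the membranes of organelles. Glucose enters by facilitated diffusion or together with sodium, amino acids are taken up with sodium or protons or are exchanged for other amino acids, and lactate leaves with protons. Some carriers work only as a pair of a glycosylated heavy chain and a transporting light chain. Macrophages are known to raise glucose, glutamine and amino acid uptake when activated, and their lysosomes return amino acids from digested material to the cytosol.

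Detection of a gene required at least 1 spot of 1 of its probes that the scanner software had marked as well above background. Its level is the log2 intensity of its brightest probe minus that of the 75th percentile of the same array, taken over non-control probes, so 0 stands for the percentile itself. Because each gene is read by its own probe, genes are not placed in order of level, and a gene that was not detected may still be expressed below what its probe can show. Which array is highest for a gene holds for this scaling and can change with the array median as reference, as given at the end. RNA came from whole cultures, so fewer cells that express a gene and less RNA per cell cannot be told apart.

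The arrays each detected 8917 to 9985 named genes, with 75th percentiles of 83.8 to 127 intensity units and no saturated spot. They share 1 slide and 1 scan time. Of 12 macrophage markers 11 were detected on all 4 arrays, among them Cd68 and Csf1r, and Adgre1 was detected on 2. Of the 8 epithelial, 7 hepatic, renal and intestinal and 5 muscle and fat markers measured, none was detected on all 4 arrays, with summed intensities of 27.5 to 55.7, 22.8 to 38.5 and 32.0 to 51.2 per array. Of 8 neuronal and glial markers Mbp and Th were detected on all arrays and Syt1 and Gfap on some, with summed intensities of 424 to 673. The macrophage markers summed to between 86477 and 135363, of which Lyz2 alone gave 57714 to 88750 per array. Other macrophage markers were far dimmer, with Csf1r at 202 to 323 and Mertk at 44 to 53. Mbp read 169 to 296 and Th 184 to 344, so the sums do not hold for each marker.

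Fewer of these transporters had a signal than of the genes on the array at large. Of the 93 genes, 35 (37.6%) were well above background on all 4 arrays, against 50.8% of all named genes and 53.9% of the 241 other Slc genes. A further 13 were detected on 1 to 3 arrays. The remaining 45 (48.4%) were detected on no array, against 36.9% of all named genes. On single arrays 38, 40, 40 and 43 of the 93 (40.9% to 46.2%) were detected on replicates 1 to 4, against 55.1%, 55.7%, 53.8% and 60.2% of all named genes. With the less strict detection flag, 47 of the 93 (50.5%) and 61.7% of all named genes were detected on all 4 arrays. The 12 genes this added were Slc6a7, Slc6a9, Slc6a11, Slc6a20a, Slc7a3l1, Slc7a14, Slc16a3, Slc16a5, Slc16a6, Slc16a8, Slc36a3 and Slc43a1.

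**Figure D1:**
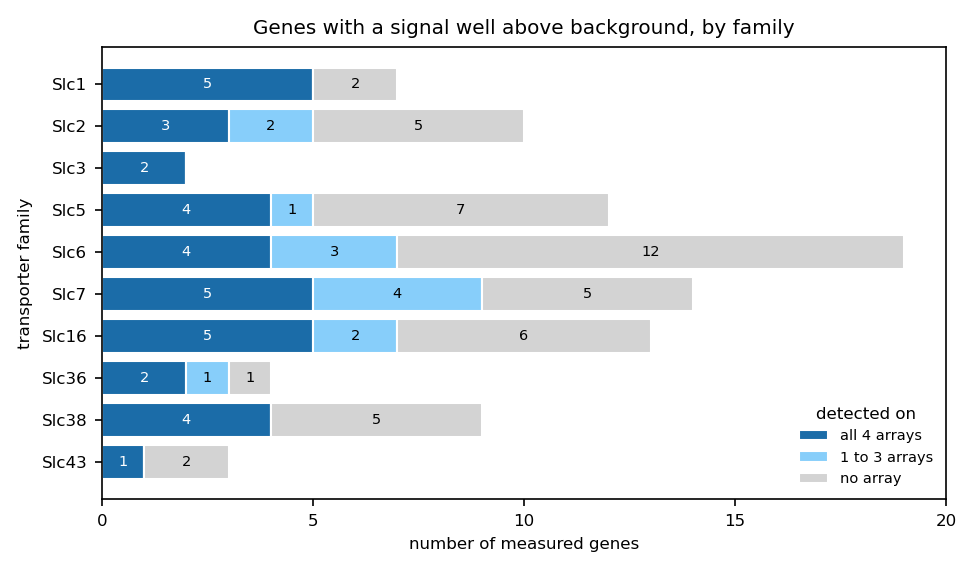
Number of measured genes in each transporter family (horizontal axis, genes), split by whether a signal well above background was found on all 4 arrays, on 1 to 3 arrays or on no array; the numbers stand in the bars. Slc1 had 5 of 7 genes and Slc3 both genes detected on all 4 arrays, whereas Slc6 had 4 of 19.

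The families differed in how many members had a signal. Both heavy chains (Slc3) and 5 of 7 glutamate and neutral amino acid transporters (Slc1) were detected on all 4 arrays. At the other end stood the sodium- and chloride-coupled Slc6 family with 4 of 19 genes. In between were 2 of 4 in Slc36, 4 of 9 in Slc38, 5 of 13 in Slc16, 5 of 14 in Slc7, 4 of 12 in Slc5, 1 of 3 in Slc43 and 3 of 10 in Slc2. These counts are small and were not tested against each other.

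The heavy chain Slc3a2 (CD98) and its light chains were present together. Slc3a2 gave levels of 4.68, 4.88, 5.18 and 4.84 on replicates 1 to 4, a mean of 4.89 ± 0.21 (SD, n = 4). Replicate 3 was the highest and replicate 1 the lowest. Of the 5 members of Slc7 that are known as its light chains, 4 were detected on all arrays and Slc7a10, an exchanger of small neutral amino acids, on none.

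Slc7a5 (LAT1), which exchanges large neutral amino acids such as leucine for glutamine, had levels of -0.50, -0.26, -0.41 and -0.12, with a mean of -0.32 ± 0.17 (SD, n = 4). Slc7a8 (LAT2), a second exchanger of neutral amino acids, read 2.74, 2.40, 2.43 and 2.42, and only replicate 1 stood apart. The exchangers of cationic for neutral amino acids were Slc7a6, at 2.78, 2.80, 2.87 and 2.92, and Slc7a7, at 1.02, 1.11, 1.33 and 1.30. Slc7a6 had the lowest SD of all 35 detected genes, 0.064, while that of Slc7a7 was 0.15 with replicates 3 and 4 above replicates 1 and 2.

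The other heavy chain, Slc3a1 (rBAT), belongs to the cystine and dibasic amino acid uptake of kidney and gut. It was detected on all arrays at -2.08, -1.85, -1.78 and -2.67, and its SD of 0.41 was the highest of the 35. Its light chain Slc7a9 was detected on replicates 1, 2 and 4 at -2.29, -2.01 and -1.90 and read -5.01 on replicate 3. Each of the genes rests on a single spot per array.

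Among the remaining Slc7 genes, Slc7a3l1 was detected on replicate 3 alone, and Slc7a4 and Slc7a13 on replicate 4 alone. Slc7a3, a cationic amino acid transporter, and Slc7a10, Slc7a12, Slc7a14 and Slc7a15 were detected on no array. Slc7a14 was covered by 10 spots per array, and none of the 38 spots used was well above background. Slc7a6os read 2.17, 1.99, 1.96 and 1.94. Of the genes left out by the rule, the cystine-glutamate exchanger Slc7a11 had a mean level of 5.27 ± 0.11, the cationic amino acid transporter Slc7a2 one of 0.69 ± 0.13 and the glucose transporter Slc2a1 one of 5.91 ± 0.17 (SD, n = 4 for each).

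**Figure D2:**
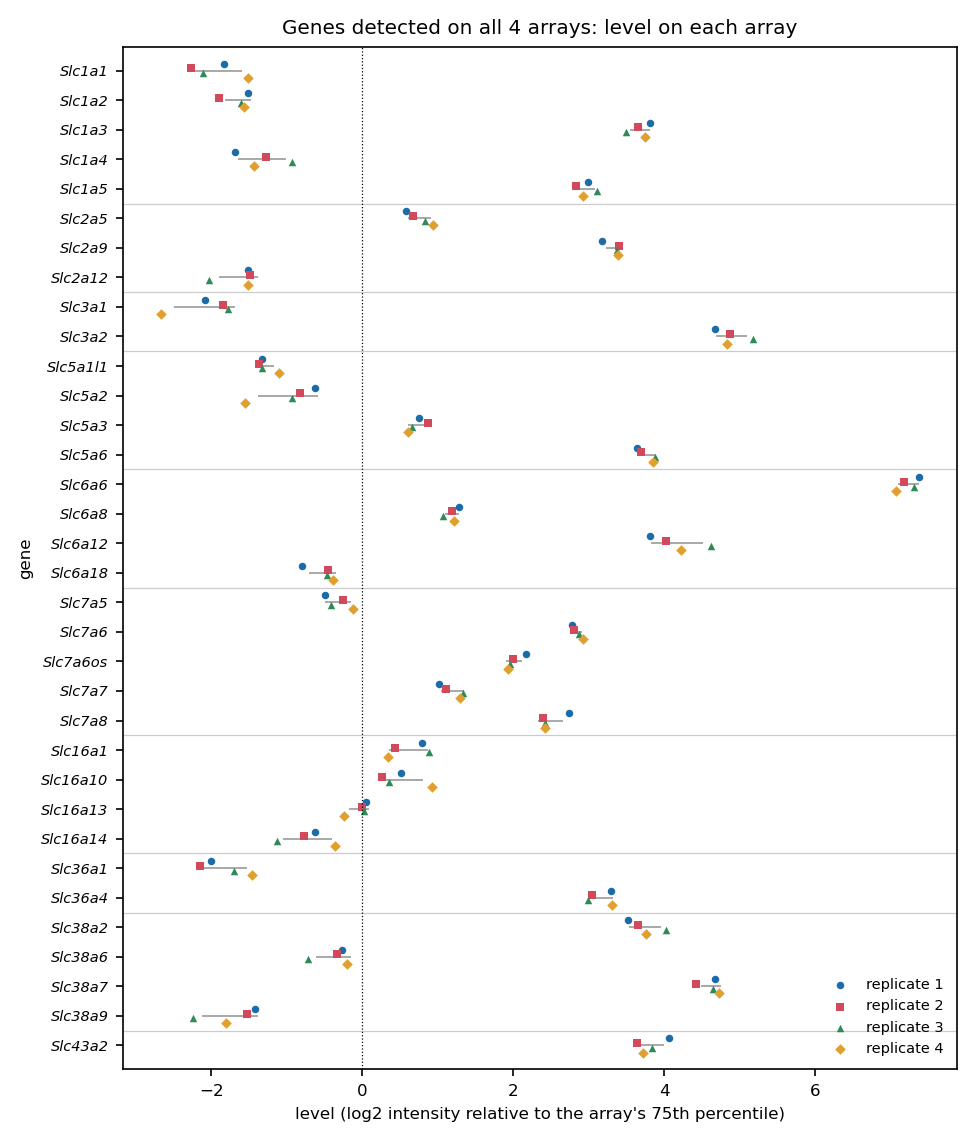
Level of 34 of the 35 genes detected on all 4 arrays (horizontal axis, log2 intensity relative to the array's 75th percentile, dotted line at 0), with 1 point per array and a grey bar of mean ± SD (n = 4); thin lines separate the families. Genes below the dotted line had a median SD of 0.311 and those above it one of 0.145, over all 35 genes.

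Slc1 held both of its branches. The sodium-dependent neutral amino acid exchanger Slc1a5 (ASCT2), a main route of glutamine uptake, read 2.99, 2.83, 3.11 and 2.92, with a mean of 2.96 ± 0.12 (SD, n = 4). Its spot on replicate 3, the highest array, lies in a region of that array that was brighter than on the other arrays, and the part of that region in the value was not tested. Slc1a4 (ASCT1), which carries alanine, serine and cysteine, had levels of -1.69, -1.27, -0.93 and -1.44, again highest on replicate 3.

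Among the glutamate transporters, Slc1a3 (GLAST) had 2 probes, both detected on all arrays, and the brighter one was printed 10 times. It read 3.82, 3.66, 3.50 and 3.75 on replicates 1 to 4, with an SD between arrays of 0.14. Within an array the SD over the 9 spots used lay between 0.046 and 0.091. The lowest spot on replicate 1 (3.75) was above the highest on replicate 3 (3.58), so on this scaling the spots of those arrays did not overlap. Repeat spots share the scaling of their array, so their scatter does not measure how far arrays differ, and the separation can change with the array median as reference.

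Slc1a2 (GLT-1), better known from astrocytes, was detected at -1.52, -1.90, -1.61 and -1.57, and Slc1a1 at -1.83, -2.27, -2.12 and -1.51. Both were lowest on replicate 2. Mbp and Th also gave a signal in the RNA of these cultures, and a link between that signal and these values was not tested. Slc1a6 and Slc1a7, glutamate transporters of the cerebellum and retina, were detected on no array.

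Of the facilitative sugar transporters, 3 of 10 were detected on all arrays, and the neuronal, insulin-responsive and hepatic glucose carriers were not among them. Slc2a9, a urate transporter, had levels of 3.18, 3.40, 3.38 and 3.39, and Slc2a5, the fructose transporter, 0.59, 0.68, 0.84 and 0.93. Slc2a12 read -1.52, -1.49, -2.04 and -1.52, with replicate 3 alone below the rest. Slc2a8, an intracellular glucose transporter, read 2.91, 3.23 and 3.17 on replicates 1 to 3. Its spot on replicate 4 lies in a bright region, was flagged by the scanner software and was left out, and with flagged spots kept the gene counts as detected on all 4 arrays.

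Slc2a3 (GLUT3), the neuronal glucose transporter, was detected on no array by either of its 2 probes. The probe printed 10 times gave 0 of 39 used spots well above background. Slc2a2 of liver and pancreas, Slc2a4 of muscle and fat, Slc2a10 and the proton-coupled inositol carrier Slc2a13 were likewise detected on none. Slc2a6, a lysosomal hexose transporter, was detected on replicate 3 alone, at -0.84, against -5.09, -4.43 and -5.57 on replicates 1, 2 and 4. Its single spot lies in the bright region of replicate 3, and without the bright regions it has no value.

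In the sodium-coupled Slc5 family, carriers of vitamins, inositol and glucose were among the 4 of 12 genes detected on all arrays. Slc5a6, which takes up biotin and pantothenate, read 3.64, 3.69, 3.88 and 3.85. Slc5a3, which takes up myo-inositol, read 0.76, 0.87, 0.66 and 0.60. Slc5a2 (SGLT2), the glucose transporter of the kidney, was detected by 1 of its 2 probes at -0.63, -0.82, -0.94 and -1.56, while the other probe was above background on replicate 4 alone. Slc5a1l1, a relative of the intestinal glucose transporter, rested on 1 of 3 probes, at -1.33, -1.37, -1.33 and -1.11, and the other 2 probes were detected on no array.

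Slc5a1 (SGLT1) was detected on replicate 3 alone, at -1.37, with a spot in the bright region of that array. The iodide transporter Slc5a5, the choline transporter Slc5a7, the monocarboxylate carriers Slc5a8 and Slc5a12, and Slc5a4, Slc5a10 and Slc5a11 were detected on no array.

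The 4 Slc6 genes detected on all arrays carry osmolytes, creatine and amino acids. Slc6a6, the taurine transporter, was detected on all arrays by all 3 of its probes, and the brightest read 7.38, 7.18, 7.32 and 7.08, a mean of 7.24 ± 0.14 (SD, n = 4). Slc6a12, which carries betaine and GABA, had levels of 3.82, 4.03, 4.62 and 4.22. Its replicates 1 and 3 differed by 0.81 on the log2 scale, the widest range among the genes highest on replicate 3 and lowest on replicate 1. Together with Slc5a3 these are the carriers that cells are known to use to gather taurine, betaine and myo-inositol as organic osmolytes, and all 3 were detected on every array.

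Slc6a8, the creatine transporter, was printed 10 times and read 1.29, 1.18, 1.07 and 1.22. Its spots overlapped between all 4 arrays, with an SD within an array of 0.16 to 0.23. Slc6a18, a neutral amino acid transporter of the kidney, rested on 1 of 2 probes, at -0.80, -0.45, -0.47 and -0.39. Cltrn, a partner protein that carries such transporters to the cell surface in the kidney, was detected on no array.

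Several Slc6 carriers of neurotransmitters were not well above background, unlike Slc6a12, which also carries GABA. The GABA transporters Slc6a11 and Slc6a13, the noradrenaline, dopamine and serotonin transporters Slc6a2, Slc6a3 and Slc6a4, and the glycine transporters Slc6a5 and Slc6a9 were detected on no array, although Slc6a9 and Slc6a11 passed the less strict flag on all 4. Neither were the amino acid transporters Slc6a14, Slc6a17 and Slc6a19, nor Slc6a21. The proline transporter Slc6a7 and the amino acid transporters Slc6a15 and Slc6a20a were detected on replicate 4 alone, which also had the most detected genes of all arrays.

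Of the monocarboxylate family, 5 of 13 genes were detected on all arrays, among them a widely expressed lactate carrier but not the lactate exporter of glycolytic cells. Slc16a1 (MCT1), which carries lactate, pyruvate and ketone bodies, read 0.79, 0.43, 0.88 and 0.35, with a mean of 0.61 ± 0.26 (SD, n = 4). Replicates 1 and 3 lay above replicates 2 and 4. Slc16a3 (MCT4) was covered by 10 spots per array, and 0 of the 34 used spots were well above background. By the less strict flag, 9, 8, 9 and 6 of its spots were positive and significant on replicates 1 to 4, and on replicate 1 none of its spots lies in a bright region. The MCT4 probe thus gave a weak signal over background that did not reach the stricter limit. Whether MCT4 RNA was the source of that signal was not tested. Bsg (basigin), which carries both proteins to the cell surface, had levels of 5.08, 5.32, 5.48 and 5.20, and Emb (embigin) a mean of 2.87 ± 0.14 (SD, n = 4).

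The other detected Slc16 genes have other substrates or none assigned with certainty. Slc16a10, which carries aromatic amino acids, read 0.51, 0.26, 0.35 and 0.92, and replicate 4 was the highest. Slc16a13 had levels between -0.24 and 0.06 and Slc16a14 between -1.13 and -0.36. Slc16a6 was detected on replicates 2 and 4, and Slc16a8 on replicates 2 and 3. Slc16a4, Slc16a5, Slc16a7, Slc16a11 and Slc16a12 were detected on no array.

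Transporters that act at the lysosome were detected across both the Slc36 and Slc38 families. Slc36a1, a proton-coupled exporter of small amino acids, read -2.01, -2.16, -1.70 and -1.47. Slc38a7, which exports glutamine and asparagine from lysosomes, read 4.68, 4.43, 4.66 and 4.73 by its brighter probe. Its other probe, also detected on all arrays, read lower, at 1.80, 1.73, 1.81 and 2.08. Slc38a9, which senses and carries arginine at the lysosome for the kinase complex mTORC1, read -1.42, -1.53, -2.25 and -1.81, and both of its probes were detected on all arrays. Replicate 3 was the lowest array for this brighter probe of Slc38a9 but the highest for the other one, which read -2.42, -2.72, -2.22 and -2.58.

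The promoters of 2 of these lysosomal genes and of Slc1a4 are shown because they hold a short motif that occurs in few windows of this length. The windows run from 250 bases before to 50 after the gene's start in RefSeq's GRCr8 build, and 71 of the 93 genes have one. Capitals mark matches to the E-box core CACGTG, which contains itself on the opposite strand, and to the amino acid response element TGATGNAAN, searched on both strands. The Slc36a1 window lies at chr10:39824785-39825084 (plus strand), that of Slc38a7 at chr19:9215128-9215427 (plus strand) and that of Slc1a4 at chr14:98761513-98761812 (minus strand).
Slc36a1: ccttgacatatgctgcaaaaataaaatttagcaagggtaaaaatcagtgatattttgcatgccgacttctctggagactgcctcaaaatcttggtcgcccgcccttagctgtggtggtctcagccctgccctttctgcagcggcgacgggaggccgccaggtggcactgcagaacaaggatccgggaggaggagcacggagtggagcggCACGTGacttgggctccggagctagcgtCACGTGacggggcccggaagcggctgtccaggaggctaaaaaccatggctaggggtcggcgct
Slc38a7: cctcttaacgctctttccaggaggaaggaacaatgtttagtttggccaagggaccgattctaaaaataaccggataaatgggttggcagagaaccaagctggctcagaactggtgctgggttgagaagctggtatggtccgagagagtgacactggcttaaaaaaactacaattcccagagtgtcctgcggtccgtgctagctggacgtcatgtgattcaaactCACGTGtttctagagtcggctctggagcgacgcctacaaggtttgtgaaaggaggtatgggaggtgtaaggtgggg
Slc1a4: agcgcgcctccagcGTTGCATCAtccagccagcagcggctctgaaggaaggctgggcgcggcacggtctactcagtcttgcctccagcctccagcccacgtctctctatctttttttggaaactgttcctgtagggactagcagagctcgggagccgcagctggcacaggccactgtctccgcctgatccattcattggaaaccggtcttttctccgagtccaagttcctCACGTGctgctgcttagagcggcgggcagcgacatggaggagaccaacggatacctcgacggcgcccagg

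Slc36a1 holds the E-box core at 2 places, starting 41 and 13 bases before the gene's start, Slc38a7 at 1 place, 26 bases before it, and Slc1a4 at 1 place, 20 bases before it. The match to the response element in Slc1a4, GTTGCATCA, lies on the opposite strand and starts 236 bases upstream. The E-box core was found in 6 of the 34 windows of the 30 detected genes that have one, those of Slc1a4, Slc5a6, Slc7a5, Slc16a1, Slc36a1 and Slc38a7. It was in 4 of the 33 windows of genes detected on no array. Other Slc genes held it in 22 of 206 windows (10.7%), and 6.42% of all promoter windows did. The response element was found in 1 of the 34 windows and in 1 of the 33, that of Slc38a1. Among other Slc genes it was in 4 of the 206 windows, and over all windows in 3.97%. A match describes the letters of the window and not a bound factor.

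The rest of these families carry amino acids at the plasma membrane or have a less settled role. Slc38a2 (SNAT2), a sodium-coupled importer of small neutral amino acids, read 3.53, 3.66, 4.03 and 3.77, with a mean of 3.74 ± 0.21 (SD, n = 4). Slc36a4 gave 3.29, 3.05, 2.99 and 3.31 by its brightest probe, another was detected at a mean of -0.71, and the third was detected on no array. Slc43a2, which lets branched-chain amino acids and phenylalanine pass, read 4.06, 3.64, 3.84 and 3.72, and Slc38a6 -0.26, -0.33, -0.71 and -0.20. Slc36a3 was detected on replicates 1, 2 and 4, and its spot lies in a bright region on replicates 2 and 4. The glutamine transporters Slc38a1, Slc38a3 and Slc38a5, and Slc38a4, Slc38a8, Slc36a2, Slc43a1 and Slc43a3, were detected on no array.

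**Figure D3:**
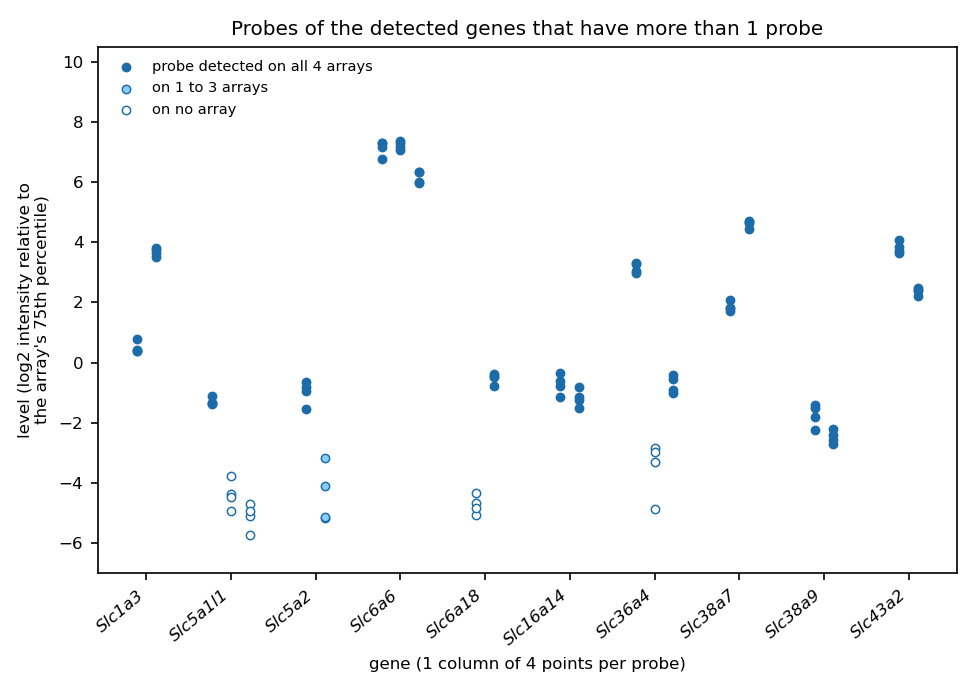
Level of every probe of the 10 detected genes that have more than 1 probe (vertical axis, log2 intensity relative to the array's 75th percentile), with 4 points per probe, 1 per array; the fill marks whether the probe was detected on all 4 arrays, on 1 to 3, or on none. Slc5a1l1, Slc5a2, Slc6a18 and Slc36a4 combine a detected probe with one that was not detected on every array.

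Of the 93 genes, 75 have a single probe, so for most of them no second measurement was available. Where a detected gene had several, 6 of 10 had every probe detected on all arrays. Their probes could still differ in mean level. These means were 3.68 and 0.49 for Slc1a3, 4.62 and 1.85 for Slc38a7 and 3.82 and 2.37 for Slc43a2. They were 7.24, 7.15 and 6.17 for Slc6a6, -0.73 and -1.18 for Slc16a14 and -1.75 and -2.49 for Slc38a9. In Slc5a1l1, Slc5a2, Slc6a18 and Slc36a4 at least 1 probe was not detected on all arrays. Counting a gene only if all its probes were detected left 31 of the 93 (33.3%, against 45.0% of all named genes). The mean over all probes was -3.60 for Slc5a1l1, -2.69 for Slc5a2, -2.62 for Slc6a18 and -0.35 for Slc36a4. The probes of Slc5a2 were named through the same RefSeq transcript, and so were those of Slc6a18. In Slc5a1l1 and Slc36a4 the brightest probe was named through another transcript than the rest. The cause of the differences between probes was not tested.

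Most of a chosen list of partners of these carriers and of the machinery that reads amino acids had a signal. Of 30 listed genes 27 were measured and 24 were detected on all 4 arrays, and 3 on none, among them Cltrn and Nprl3. Over all named genes 50.8% were detected on all 4 arrays. The list was chosen with earlier results of these data known, and its share was not tested. Atf4, the transcription factor that induces amino acid transporters when amino acids are short, read 7.01, 7.03, 7.25 and 7.24, and Asns, which makes asparagine, 6.20, 6.06, 6.35 and 6.06. Glul, which makes glutamine, had a mean of 3.62 ± 0.13 (SD, n = 4). Mtor read -1.19, -0.99, -1.26 and -1.04, and all 5 Lamtor genes, whose products anchor mTORC1 at the lysosome, were detected, as were Rraga, Rragc and Rragd of the Rag GTPases. Txnip, which restrains glucose uptake, had a mean of 1.81 ± 0.20 (SD, n = 4).

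The median SD over the 35 genes was 0.172, equal to 1.13-fold. It depended on the scaling and was 0.395 with the array median as reference. Over all 8424 detected genes it was 0.165 and over the 130 other detected Slc genes 0.187. The SD ranged from 0.064 for Slc7a6 to 0.41 for Slc3a1. It was above 0.3 for 9 of the 35 genes (25.7%), against 14.0% of all detected genes. Of those 9 genes, 8 had a mean level below 0. Of the 35 genes, 15 had a mean below their arrays' 75th percentile with a median SD of 0.311, and 20 had one above it with a median SD of 0.145. The same split over all detected genes gave 0.236 and 0.147.

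The 8 genes with the largest SD included Slc3a1, Slc5a2, Slc38a9, Slc6a12, Slc1a1, Slc16a14 and Slc1a4, and among the 8 Slc6a12 alone had a mean level above 0. They did not share a direction. By their brightest probes, Slc3a1 and Slc5a2 were lowest on replicate 4, Slc38a9 and Slc16a14 lowest on replicate 3, and Slc1a1 and Slc16a14 highest on replicate 4. Both probes of Slc16a14 had the same extremes. The other probe of Slc5a2, at -5.19, -4.11, -5.14 and -3.17, was highest on replicate 4, and that of Slc38a9 was highest on replicate 3.

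The median deviation of the 35 genes from their own means was 0.03, -0.05, 0.04 and 0.06 on replicates 1 to 4, and replicate 3 lay at 0.47 with the array median as reference. Over all detected genes it was 0.03, -0.02, 0.03 and -0.03. Replicate 1 was the highest array for 10 of the 35 genes, replicate 2 for 3, replicate 3 for 10 and replicate 4 for 12, against 31.0%, 17.6%, 31.5% and 20.0% of all detected genes.

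**Figure D4:**
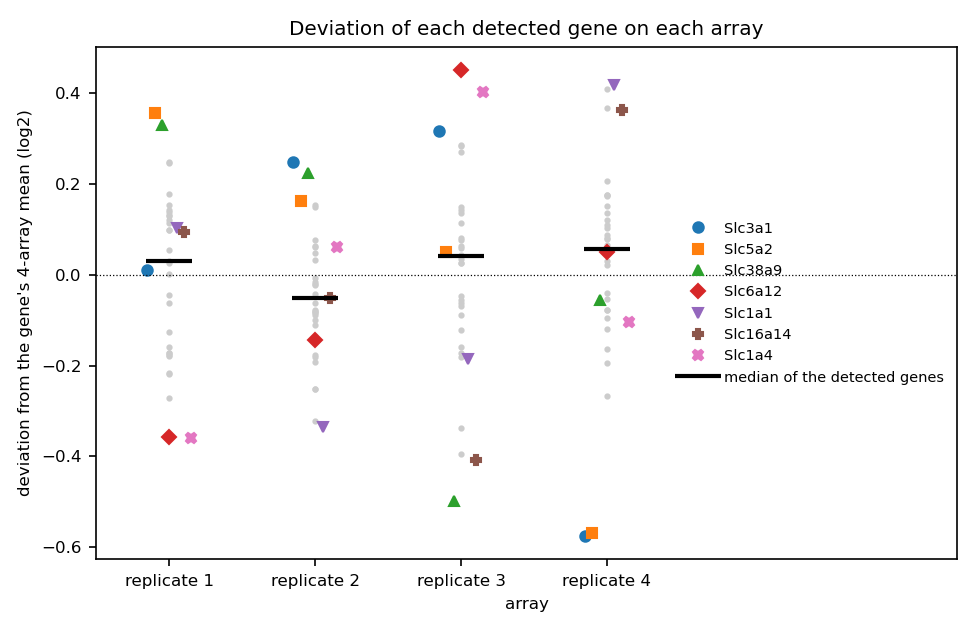
Deviation of 34 of the 35 detected genes from their own means over 4 arrays (vertical axis, log2), by array; coloured symbols are 7 of the 8 genes with the largest SD, grey points the other genes and black bars the median of the 35. The medians lie between -0.05 and 0.06, while Slc6a12 and Slc1a4 stand above 0.4 on replicate 3 and Slc3a1 and Slc5a2 below -0.5 on replicate 4.

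A group of 7 genes, picked out after the values were seen, was lowest on replicate 1 and highest on replicate 3. They include Slc1a4, Slc3a2, Slc5a6, Slc6a12, Slc7a7 and Slc38a2, and the 7 are 20.0% of the 35 genes against 9.00% of all detected genes. Slc6a12 and Slc1a4 spanned 0.81 and 0.76 log2 units between those arrays, and Slc38a2 and Slc3a2 0.50 each. The pattern depended on the scaling. It was checked under the other settings after the data were seen. It was found for 5 of the 35 genes after quantile normalization, 4 with the 75th percentile of detected probes, 4 with another background correction and 1 with the array median, against 9.79%, 9.84%, 8.02% and 3.43% of all detected genes. Slc3a2, Slc6a12 and Slc38a2 kept it under the first 3 of these settings and lost it with the array median. It was found for 7 genes with the mean over all probes, for 7 of 36 with flagged spots kept and for 9 of 34 with bright regions left out, against 9.33%, 7.29% and 11.4% of all detected genes.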

How the data were processed

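Cy3-labelled RNA of 4 replicates of NR8383 cells was measured on 1-colour Agilent rat arrays, 1 array each. Spot intensities were deposited on a linear scale. The submitters' processing notes name Agilent Feature Extraction 11.0.1.1, and the columns are its processed signals per the file headers, with no scaling between arrays done beforehand. The other columns used, per the file headers, are spot and background medians and flags of 0 or 1.

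Of 62976 spots 58717 are not controls. They form 45598 probes, of which 21109 were named through RefSeq transcript accessions of GRCr8, without version. The array grid was built on an older assembly. Spots flagged as outliers were left out (750 to 1551 per array), log2 processed signals were averaged per probe, and each array was then set relative to its own 75th percentile of non-control probes. A gene's level is that of its probe with the highest mean. No group comparison was made, and 4 arrays limit the precision. Dixon's ratio was used to look for single arrays that stand apart within a gene. Values are named for the transporters detected on all arrays, a list of well-known carriers, the 8 with the largest SD and those whose probes disagree, and other members are named by family. A few genes of the lists are not reported here. The members and lists were chosen with earlier results of these data known. Bright regions are blocks of 16 rows and 8 columns where more than 10% of spots without a gene name exceeded all other arrays by at least 1 log2 unit. The normexp alternative was planned on mean spot signals and run on medians. Alternatives are given in the closing section. The methods were tested on simulated data. Python 3.11.15 (numpy 2.4.6, pandas 2.3.3, matplotlib 3.10.9) computed all values except normexp, which used limma 3.58.1 in R 4.3.3.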

Additional observations from a re-analysis of the deposited data

Results flagged for a closer look

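In 6 of 47 genes a single array stood apart from the other 3 by Dixon's ratio of the gap to the nearest array. The 47 are those detected on at least 1 array with a value on all 4, which leaves out Slc2a8. Chance flags about 1 in 20 such groups. Of the 35 genes detected on all arrays 4 were picked out, each by a gap of at most 0.52 on the log2 scale. Slc2a9 read 3.18 on replicate 1, 0.20 below the next array. Slc2a12 read -2.04 on replicate 3, 0.52 below the next. Slc5a1l1 read -1.11 on replicate 4, 0.22 above the next. Slc7a8 read 2.74 on replicate 1, 0.32 above the next.

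Both of the others were detected on some arrays only. They entered through the arrays on which they were detected, so the chance rate does not apply to them and their values are a description. Slc7a4 read -2.07 on replicate 4 and between -5.41 and -5.10 on the other arrays, and it was detected on replicate 4 alone by 1 of its 2 probes. Slc7a9 read -5.01 on replicate 3, where it was not detected, against -2.29 or more on the other arrays. None of these 6 genes has a spot in a bright region.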

How the results depend on the processing

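The count of carriers detected on all 4 arrays was 35, and it ranged from 31 to 47 over 7 alternatives, within 1.5 times of the main count under each. Leaving out each replicate gave 35 to 37. With 3 of 4 arrays enough it was 38, adding Slc2a8, Slc36a3 and Slc7a9, and without the bright regions it was 34, because Slc1a5 lost its only spot.

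The median SD of 0.17 was 0.21 with the less strict flag and 0.39 with the array median. It was 0.14 with normexp and 0.32 without a detection filter. The less strict flag adds 12 genes that missed the stricter limit, and leaving out the filter adds genes near background. The array median moves the reference of each array by its own amount. The cause of the normexp shift was not tested. Under the other alternatives the median SD moved by less than its jackknife standard error of 0.022, and leaving out each replicate gave 0.15 to 0.19. With the array median, the median deviation was -0.31, 0.47 and -0.20 on replicates 2, 3 and 4. It lay between -0.06 and 0.06 when a replicate was left out, and between -0.06 and 0.11 on any array under the other alternatives. Levels shifted by 3.57 with the array median and by -3.41 with the 75th percentile of detected probes, which are changes of the reference point. Normexp, run on the median spot signals with an offset of 50, moved 33 of 37 levels by more than 1 SD, and the mean over all probes moved 8. Quantile normalization, flagged spots and the bright regions moved none. No paired analysis was possible because there is only 1 group. Weak signals near background, as for Slc16a3, limit what the detection flag can show.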
